A study of Homo sapiens with 36 samples.

Results

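The genes described here are 10 transcription factors that set the balance between epithelial and mesenchymal identity, followed in A549 cells during and after exposure to interleukin-1β (IL-1β). Of these, 6 are drivers of the epithelial-to-mesenchymal transition (EMT): SNAI1 (SNAIL), SNAI2 (SLUG), TWIST1, TWIST2, ZEB1 and ZEB2. The other 4, GRHL2, OVOL1, ELF3 and KLF4, are factors of the epithelial state. They were chosen by name, and all 10 have a row among the 63677 genes of the count tables. Of the 10, 8 had enough reads to be tested, among 19180 genes tested in all, and GRHL2 and OVOL1 did not.

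A549 is an established human lung adenocarcinoma line, so the data describe 1 cell line in culture. Cells were grown in RPMI medium with 10% serum and split every 3 to 4 days, with no cytokine (control) or with IL-1β at 1 ng/ml, and were taken on days 6, 15 and 21. Cells kept in IL-1β for 21 days and then returned to medium without it were taken 6, 15 and 30 days later, with a matching control group for each time point. The labels give 3 biological replicates in each of the 12 groups, which makes 36 RNA-seq libraries. They do not say whether the replicates were separate long-term cultures, so p-values measure the spread between these samples.

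EMT is a switch in which epithelial cells loosen their junctions, give up apical-basal polarity and gain a migratory, mesenchymal character. SNAI and ZEB factors are zinc finger repressors that bind the E-box CAGGTG, best known in the promoter of CDH1, the gene of E-cadherin. TWIST factors are basic helix-loop-helix proteins that bind E-boxes as dimers. GRHL2 and OVOL1 maintain epithelial genes and hold ZEB1 down in many epithelia, ELF3 is an ETS factor of differentiated epithelium, and KLF4 is a zinc finger factor that also activates CDH1.

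Expression is given as CPM, counts scaled to a common library size with TMM factors, and differences as log2 fold changes of IL-1β against control with the standard error (SE) from 1 edgeR quasi-likelihood model of all 36 libraries. A gene was called when its Benjamini-Hochberg adjusted p over all 19180 genes was under 0.05 and its values differed by more than 2-fold. The libraries held 9116032 to 23570026 reads assigned to genes. A set of 11 libraries, 6 control and 5 IL-1β, stood apart with 11.8% to 24.6% of their counts on mitochondrial genes, where the other 25 had 5.61% to 7.75%. Of these 11 high-share libraries, 8 were labelled replicate 2 and 8 belonged to the withdrawal time points. No source names a batch, and values from the 25 low-share libraries alone are given where they change a result. The low-share fit tested 20248 genes. Among those 25 libraries, days 6 and 15 after withdrawal have a single control library each, whose spread is assumed to be that of the other groups. Marker values in the rest of this paragraph are CPM without TMM factors, scaled by the reads assigned to genes alone. Of the epithelial markers, KRT8, KRT18 and CDH1 were abundant in every library, with a lowest value of 26.8 CPM for CDH1. EPCAM did not exceed 1.43 CPM and KRT19 0.209 CPM, so the epithelial label rests on the other 3 markers. With TMM factors the highest values were 1.625 CPM for EPCAM and 0.1948 CPM for KRT19. The summed level of the fibroblast markers was 1.10 to 4.51 CPM, of the endothelial markers CDH5 and VWF 0 to 0.375 CPM and of the type II pneumocyte markers 0.215 to 1.43 CPM. The leukocyte markers summed to 1.40 to 17.3 CPM, mostly CD14 (1.30 to 16.9 CPM), with PTPRC at 0.150 CPM or below and CD3E at 0.

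In untreated cells ELF3 was by far the most abundant of these factors, and IL-1β changed the order below it. Levels of different genes were compared as RPKM, the CPM per kilobase of the MANE Select transcript. In control cells at day 21, ELF3 stood at 34.2 ± 4.15 RPKM (SD, n = 3), ZEB1 at 4.38 ± 0.458 and KLF4 at 3.02 ± 0.594. TWIST2 (1.76 ± 0.512), SNAI1 (1.70 ± 0.156), TWIST1 (1.46 ± 0.132) and SNAI2 (1.09 ± 0.325) followed, and the ranges of neighbours in this run of 4 overlapped. ZEB2 was lowest at 0.531 ± 0.0860 RPKM. In IL-1β cells at day 21, SNAI2 stood in place 2 at 10.2 ± 4.17 RPKM, and its range overlapped that of ELF3 above it (15.7 ± 6.61) and that of ZEB1 below it (5.96 ± 0.946). ZEB2 (2.25 ± 0.282) moved up to place 4 and its range overlapped that of TWIST1 (2.10 ± 0.238). SNAI1 was last, at 1.12 ± 0.155 RPKM, apart from KLF4 above it (1.84 ± 0.0984). At day 30 after withdrawal the IL-1β cells again had ELF3 (29.2 ± 8.37) and ZEB1 (4.91 ± 0.778) on top, SNAI2 in place 6 (1.76 ± 0.453) and ZEB2 last (0.704 ± 0.258).

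**Figure D1:**
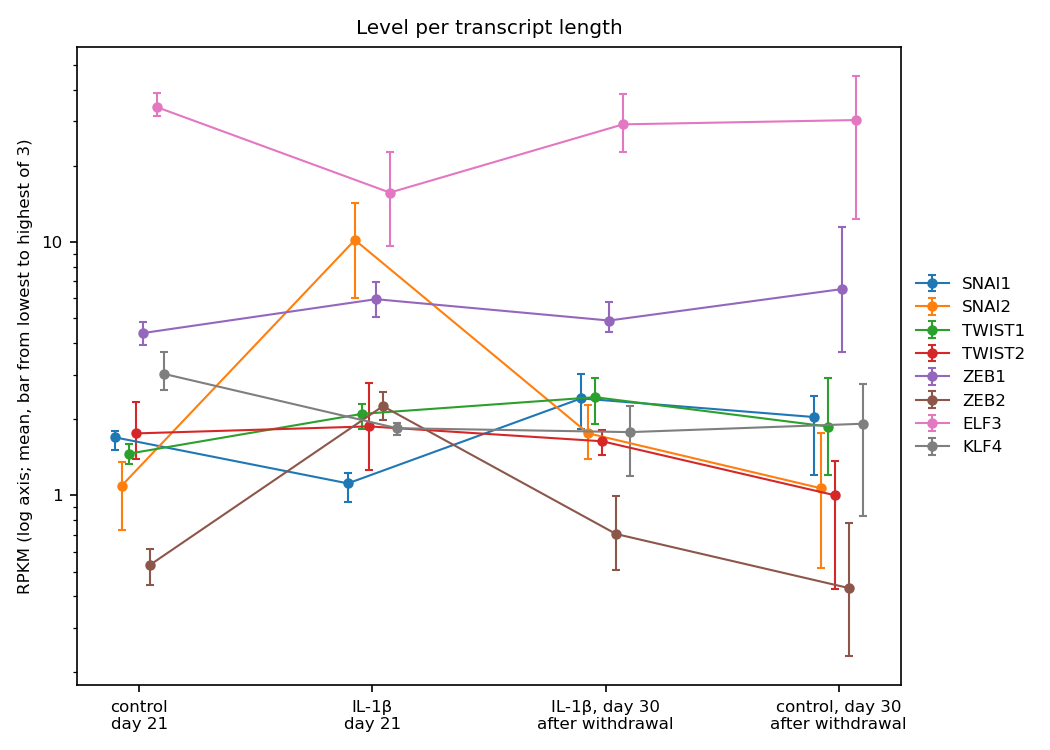
RPKM (log axis) of the 8 tested factors in control and IL-1β cells at day 21 and at day 30 after withdrawal. Points are means of 3 replicates and bars run from the lowest to the highest. SNAI2 goes from 1.09 RPKM in control to 10.2 in IL-1β cells at day 21, and ELF3 from 34.2 to 15.7.

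In the model of all 36 libraries SNAI2 and ZEB2 were the only members called at any time point, and both were higher with IL-1β. At day 6 of IL-1β, 1 of the 8 tested members was called, where 2.77% of all tested genes were. At day 15 there were 2 (background 4.24%), at day 21 also 2 (4.26%) and at day 6 after withdrawal again 2 (1.8%). None was called at day 15 or day 30 after withdrawal, where 0.954% and 0.897% of tested genes were. At day 15 SNAI2 was the 1 tested member with an unadjusted edgeR p under 0.05 (0.0133), and at day 30 there were 0. The share of all tested genes under that limit was not counted. DESeq2's Wald test also called 0 members at either time. Averaged over the 3 exposure time points, SNAI2 and ZEB2 were called, beside 5.54% of tested genes, and averaged over the 3 withdrawal time points SNAI2 was called, beside 2.39%. By the adjusted p alone, with no limit on the fold, 4 members passed in the mean over exposure (SNAI2, ZEB2, TWIST1 and ELF3) beside 15.3% of tested genes, and 2 in the mean over withdrawal (SNAI2 and ZEB2) beside 7.71%.

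SNAI2 (ENSG00000019549, GRCh37 chromosome 8, 49830157 to 49834299, minus strand) encodes SLUG, a Snail-family repressor of CDH1. At day 6 the 3 control libraries held 1.77, 2.52 and 1.65 CPM and the 3 IL-1β libraries 5.31, 5.85 and 7.21. At day 15 the controls held 2.54, 2.76 and 2.03 CPM and the IL-1β libraries 14.2, 14.8 and 23.5. At day 21 the controls held 2.96, 2.59 and 1.59 CPM and the IL-1β libraries 22.4, 31.3 and 13.1. The groups did not overlap at any of these days, and the lowest IL-1β library at day 21 stood above the highest at day 6. In bulk RNA, more cells with a transcript and more transcript per cell cannot be told apart. SNAI2 differed by 1.64 ± 0.49 on the log2 scale at day 6 and just missed the threshold (adjusted p = 0.0505). It rose by 2.83 ± 0.48 at day 15 (adjusted p = 0.000181) and by 3.23 ± 0.49 at day 21 (adjusted p = 3.3e-05), the last a 9.37-fold rise. Within the low-share libraries SNAI2 was called at day 6 too, with 1.87 ± 0.29 (adjusted p = 0.000201), where 3.42% of tested genes were. The responses at day 6 and day 21 differed by a log2 value of 1.59 ± 0.67 (unadjusted p = 0.0247), which did not pass over all genes (adjusted p = 1, with 0.0104% of genes called in that comparison).

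After withdrawal SNAI2 was still high at day 6 and stood lower at the later times. At day 6 after withdrawal the controls held 4.51, 4.23 and 1.72 CPM and the IL-1β libraries 15.7, 44.9 and 13.5. At day 15 the controls held 2.34, 5.81 and 5.69 CPM and the IL-1β libraries 7.83, 16.3 and 7.97. At day 30 the controls held 1.99, 3.86 and 1.13 CPM and the IL-1β libraries 3.53, 4.94 and 3.04. The groups stood apart at days 6 and 15 and overlapped at day 30, so SNAI2 was higher without overlap at 5 of the 6 time points, and 1.88% of tested genes were so at 5 or more. The control values of 3.86 CPM and above all came from high-share libraries, as did the IL-1β value of 44.9. The response was 2.86 ± 0.49 on the log2 scale at day 6 (adjusted p = 0.000552), 1.23 ± 0.46 at day 15 (adjusted p = 0.313) and 0.80 ± 0.49 at day 30 (adjusted p = 0.732). These are 88.5%, 38.0% and 24.8% of the day 21 value on the log2 scale. In the low-share libraries they were 3.10 ± 0.37, 1.76 ± 0.38 and 1.08 ± 0.32, that is 106%, 60.0% and 36.7% of the day 21 value there, with adjusted p of 0.000104, 0.0749 and 0.150. With the mitochondrial share as a covariate SNAI2 was called at day 15 after withdrawal, at 1.57 ± 0.24 (adjusted p = 0.000121, beside 1.41% of tested genes called). With replicate 1 left out, the call at day 6 after withdrawal was lost (log2 fold change 3.33, adjusted p = 0.0848). That fit called 0.151% of tested genes at this time, beside 1.8% in the model of all libraries.

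ZEB2 (ENSG00000169554, GRCh37 chromosome 2, 145121931 to 145278624, minus strand) encodes a zinc finger homeodomain repressor of epithelial genes. At day 6 the controls held 4.32, 7.57 and 5.14 CPM and the IL-1β libraries 15.5, 15.9 and 12.3. At day 15 the controls held 4.50, 4.23 and 4.11 CPM and the IL-1β libraries 17.7, 17.5 and 38.3. At day 21 the controls held 4.96, 4.10 and 5.70 CPM and the IL-1β libraries 20.5, 23.7 and 18.5. Every IL-1β library was above every control on all 3 days, and the value of 38.3 came from a high-share library. ZEB2 rose by a log2 value of 1.36 ± 0.40 at day 6 (adjusted p = 0.0458), 2.51 ± 0.41 at day 15 (adjusted p = 0.000102) and 2.08 ± 0.40 at day 21 (adjusted p = 0.000852). The call at day 6 was lost without replicate 1 (adjusted p = 0.767) or replicate 3 (adjusted p = 0.190), and that at day 21 without replicate 1 (adjusted p = 0.0965). Those fits called 0.916% and 2.14% of tested genes at day 6 and, without replicate 1, 1.56% at day 21. The model of all libraries called 2.77% and 4.26% on these days. Reads of ZEB2 may include some from overlapping genes, since 11.3% of its annotated exonic bases lie in AC009951.1 on the same strand and 4.97% opposite AC009951.2 and ZEB2-AS1, and the strand setting of the counting was not given in the sources used here.

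At day 6 after withdrawal the ZEB2 controls held 6.32, 9.59 and 4.08 CPM and the IL-1β libraries 14.3, 27.4 and 12.3. At day 15 the controls held 5.84, 8.87 and 7.21 CPM and the IL-1β libraries 11.2, 17.8 and 8.43. At day 30 the controls held 2.15, 7.21 and 2.61 CPM and the IL-1β libraries 4.68, 9.23 and 5.66. The groups were apart at day 6 and overlapped at days 15 and 30, where a high-share control library reached into the IL-1β range. The response was 1.43 ± 0.40 on the log2 scale at day 6 (adjusted p = 0.0488), a call that each of the 3 fits with a replicate left out lost (adjusted p = 0.0542 to 0.634). Those fits called 0.151% to 1.53% of tested genes at that time, beside 1.8% in the model of all libraries. The ZEB2 response was 0.77 ± 0.39 at day 15 (adjusted p = 0.619) and 0.78 ± 0.41 at day 30 (adjusted p = 0.657). In the low-share libraries ZEB2 was called at day 30, at 1.13 ± 0.21 (adjusted p = 0.00869, beside 0.716% of tested genes called), and there the controls of 2.15 and 2.61 CPM stood below the IL-1β libraries of 4.68 and 5.66. Averaged over the withdrawal time points ZEB2 was higher by 0.99 ± 0.23 (adjusted p = 0.00470), just under 2-fold, and by 1.198 ± 0.132 in the low-share libraries. In the 3 edgeR fits with a replicate left out, the mean over withdrawal lay between 0.95 and 1.01, with an adjusted p of up to 0.216.

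**Figure D2:**
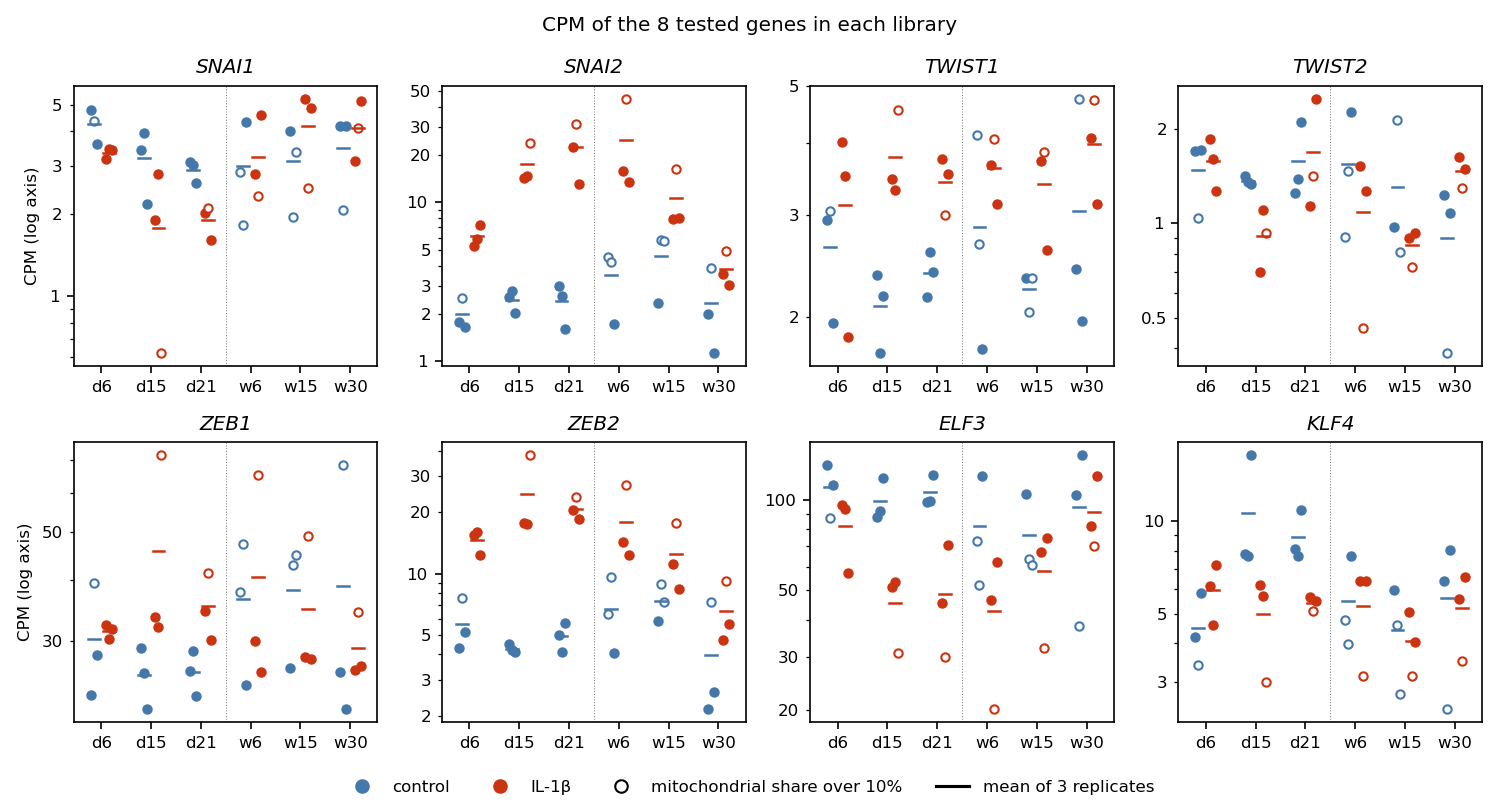
CPM (log axis, a different range in each panel) of the 8 tested factors in each of the 36 libraries, by day of exposure (d) or day after withdrawal (w). Points are libraries, open where the mitochondrial share was over 10%, and bars are means of 3 replicates. IL-1β libraries of SNAI2 lie above all controls from d6 to w15, and those of ZEB2 from d6 to w6.

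None of the other 4 EMT factors was called at any time point. At day 15 of IL-1β the unadjusted edgeR values were 0.0499 for SNAI1, 0.0102 for TWIST1 and 0.0336 for ZEB1, and none of these genes was under 0.05 at another time point. SNAI1 (ENSG00000124216, GRCh37 chromosome 20, 48599517 to 48605423), the founding member of the Snail family, had all IL-1β libraries below all controls at days 6 and 21 of exposure, and overlapping groups at day 15. At day 6 its controls held 4.77, 4.35 and 3.604 CPM and the IL-1β libraries 3.17, 3.44 and 3.41. At day 21 its controls held 3.08, 3.02 and 2.59 CPM and the IL-1β libraries 2.01, 2.10 and 1.60. SNAI1 differed by -0.34 ± 0.37 on the log2 scale at day 6, by -0.79 ± 0.39 at day 15 and by -0.61 ± 0.38 at day 21, and the mean over exposure was -0.58 ± 0.22 (adjusted p = 0.0776). In the low-share libraries that mean was -0.47 ± 0.16 (adjusted p = 0.0338). After withdrawal the SNAI1 values were 0.10 ± 0.38, 0.42 ± 0.38 and 0.22 ± 0.37 on the log2 scale, and the groups overlapped at all 3 time points.

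TWIST1 (ENSG00000122691, GRCh37 chromosome 7, 19060614 to 19157259) had small positive values throughout. At day 15 its controls held 2.37, 1.73 and 2.18 CPM and the IL-1β libraries 3.46, 3.31 and 4.55. At day 21 the controls held 2.17, 2.59 and 2.39 CPM and the IL-1β libraries 3.75, 2.99 and 3.53, again without overlap. The log2 fold change lay between 0.23 at day 6 and 0.84 at day 15 over the 6 time points. Averaged over exposure TWIST1 was higher by 0.53 ± 0.17 (adjusted p = 0.0361), under 2-fold. Averaged over withdrawal it was 0.47 ± 0.18 (adjusted p = 0.120), and 0.70 ± 0.20 in the low-share libraries (adjusted p = 0.0364). TWIST2 (ENSG00000233608, GRCh37 chromosome 2, 239756673 to 239832230), its close relative, was the lowest-count member tested, with 3 to 61 counts per library. Its log2 fold changes ran from -0.59 ± 0.40 at day 15 of IL-1β to 0.60 ± 0.40 at day 30 after withdrawal, with adjusted p of 0.478 and 0.756.

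ZEB1 (ENSG00000148516, GRCh37 chromosome 10, 31607424 to 31818742), the paralogue of ZEB2, was already expressed without IL-1β. At day 15 its controls held 29.1, 25.9 and 21.9 CPM and the IL-1β libraries 33.7, 32.1 and 71.7. At day 21 the controls held 26.1, 28.7 and 23.2 CPM and the IL-1β libraries 34.7, 41.3 and 30.2. The groups did not overlap on either day, and the value of 71.7 came from a high-share library. ZEB1 differed by 0.84 ± 0.37 on the log2 scale at day 15 (adjusted p = 0.236) and 0.44 ± 0.37 at day 21 (adjusted p = 0.838), and 0.37 ± 0.13 and 0.34 ± 0.13 in the low-share libraries. Averaged over exposure it was 0.45 ± 0.22 (adjusted p = 0.204) in all libraries and 0.34 ± 0.07 (adjusted p = 0.00150) in those of low share. After withdrawal ZEB1 stood at 0.14 ± 0.37, -0.13 ± 0.37 and -0.40 ± 0.37 in time order, with overlapping groups, and the later pair of values changed sign in the low-share libraries (0.072 and 0.15). Of its exonic bases, 4.58% lie opposite ZEB1-AS1.

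Of the epithelial factors, ELF3 was lower with IL-1β, by less than 2-fold on average. ELF3 (ENSG00000163435, GRCh37 chromosome 1, 201977073 to 201986311, plus strand) is an epithelium-specific ETS factor that is also an early target of inflammatory cytokines in other cells. At day 6 its controls held 130.8, 87.2 and 112.1 CPM and the IL-1β libraries 95.7, 93.2 and 57.0. At day 15 the controls held 87.4, 91.8 and 118.0 CPM and the IL-1β libraries 51.3, 53.4 and 31.0. At day 21 the controls held 98.2, 99.3 and 121.0 CPM and the IL-1β libraries 45.5, 30.1 and 70.7. The IL-1β values of 31.0 and 30.1 came from high-share libraries. The groups overlapped at day 6 and not at days 15 and 21. In the order of these days, the ELF3 response was -0.43 ± 0.41, -1.13 ± 0.42 (adjusted p = 0.121) and -1.12 ± 0.42 (adjusted p = 0.135), and the mean over exposure fell by 0.89 ± 0.24 (adjusted p = 0.00852). In the 3 edgeR fits with a replicate left out, that mean lay between -0.95 and -0.78, with an adjusted p of up to 0.185. With the replicate number as a block, ELF3 was called at day 21, at -1.19 ± 0.35 (adjusted p = 0.0347, beside 4.64% of tested genes called). In a separate fit of that day it was also called, at -1.10 ± 0.25 (adjusted p = 0.0157, beside 5.59%). It was not called in the low-share libraries at day 15 (-0.92 ± 0.23) or day 21 (-0.85 ± 0.23). With the mitochondrial share as a covariate it was not called on these days either (-0.86 ± 0.23 and -0.87 ± 0.23). The low-share libraries gave a fall of 0.77 ± 0.13 (adjusted p = 0.000103) over exposure. At day 6 after withdrawal the controls held 73.1, 52.3 and 119.6 CPM and the IL-1β libraries 46.4, 20.2 and 62.0, a log2 fold change of -0.93 ± 0.42 (adjusted p = 0.424). In the low-share libraries ELF3 was called at that time, at -1.12 ± 0.29 (adjusted p = 0.0343, beside 2.16% of tested genes called), as it was with the mitochondrial share as a covariate, at -1.27 ± 0.23 (adjusted p = 0.000478, beside 2.81%). At day 15 after withdrawal the controls held 104.2, 63.7 and 60.8 CPM and the IL-1β libraries 66.8, 32.2 and 74.7 (log2 fold change -0.40 ± 0.41, adjusted p = 0.875). At day 30 the controls held 104.0, 38.2 and 140.8 CPM and the IL-1β libraries 81.9, 70.3 and 120.0, at -0.06 ± 0.41. The groups overlapped at all 3 withdrawal time points, and in each the lowest library was of high mitochondrial share. Of the exonic bases of ELF3, 9.24% lie in ENSG00000249007 on the same strand and 9.24% opposite ELF3-AS1, and reads from these genes may be mixed.

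The promoters of ELF3 and ZEB2 are shown because, in the mean over exposure, ZEB2 rose and ELF3 fell, the latter by less than 2-fold and not called. E-box repressors are among the members, and whether any of them acts on ELF3 or ZEB2 was not tested. The 2 windows were thus picked by these results. Both are RefSeq entries of GRCh38.p14, the 250 bases before the start, 5′ to 3′ on the strand of the gene, for ELF3 at chr1:202010337-202010586 (plus strand) and for ZEB2 at chr2:144520120-144520369 (minus strand). Capitals mark matches on either strand to the E-box CAGGTG, the AP-1 site TGANTCA and the NF-κB consensus.
ELF3: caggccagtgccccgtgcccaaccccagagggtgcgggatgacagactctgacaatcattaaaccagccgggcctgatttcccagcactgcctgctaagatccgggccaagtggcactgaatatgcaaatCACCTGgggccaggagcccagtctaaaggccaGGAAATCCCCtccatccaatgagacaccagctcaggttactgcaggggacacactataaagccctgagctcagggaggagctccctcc
ZEB2: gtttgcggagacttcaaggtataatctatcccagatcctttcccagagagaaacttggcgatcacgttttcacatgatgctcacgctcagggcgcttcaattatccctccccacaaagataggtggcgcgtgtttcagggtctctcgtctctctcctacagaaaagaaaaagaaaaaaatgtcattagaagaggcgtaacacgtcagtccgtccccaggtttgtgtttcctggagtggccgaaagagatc
The ELF3 window holds 1 E-box, at positions -120 to -115 counted back from the start (-1 is the base before it), and 1 match to the NF-κB consensus at -88 to -79, with no overlap between them. The ZEB2 window holds none of the 3 motifs. Of 35116 promoter windows of the same length, 17.5% hold the E-box, 9.96% the NF-κB consensus and 6.57% the AP-1 site. Windows were present for 5 of the 10 members. The KLF4 and TWIST2 windows held none of the 3 motifs, and of 7 windows of ZEB1, one held 1 E-box, another 2 E-boxes and another 2 overlapping NF-κB matches. A match is a run of letters and not a measured binding site.

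KLF4 (ENSG00000136826, GRCh37 chromosome 9, 110247133 to 110252763, minus strand) did not pass at any time point. At day 6 its controls held 4.18, 3.39 and 5.85 CPM and the IL-1β libraries 6.14, 4.60 and 7.21. At day 15 the controls held 7.81, 7.69 and 16.4 CPM and the IL-1β libraries 6.21, 5.69 and 3.00. At day 21 the controls held 8.09, 7.66 and 10.9 CPM and the IL-1β libraries 5.65, 5.09 and 5.50. The groups overlapped at day 6 and not at days 15 and 21, and the controls of the later days stood above those of day 6 while the IL-1β libraries did not. KLF4 differed by 0.42 ± 0.39 on the log2 scale at day 6, -1.08 ± 0.38 at day 15 (adjusted p = 0.0969) and -0.71 ± 0.38 at day 21 (adjusted p = 0.448). Without replicate 2, KLF4, ELF3 and ZEB1 were called at day 15 beside SNAI2 and ZEB2, 5 members in all, where 4.57% of tested genes were called. That fit kept the high-share IL-1β library of day 15, which held 3.00 CPM of KLF4, 31.0 of ELF3 and 71.7 of ZEB1. In the low-share libraries these genes were not called at day 15: KLF4 at -0.84 ± 0.27 (adjusted p = 0.0552), ELF3 at -0.92 ± 0.23 and ZEB1 at 0.37 ± 0.13. After withdrawal the KLF4 values were -0.05, -0.13 and -0.14, with overlapping groups at all 3 time points. Over the 8 tested members, the CPM of the groups did not overlap in 3 at day 6 of IL-1β (21.8% of all tested genes), 7 at day 15 (25.4%) and 7 at day 21 (29%). Of the withdrawal time points, day 6 had 2 such members (10.8%), day 15 had 2 (10.9%) and day 30 had 1 (11.9%), which was TWIST2.

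GRHL2 and OVOL1 were at the floor in both conditions. GRHL2 (ENSG00000083307, GRCh37 chromosome 8, 102504667 to 102681954), a grainyhead factor that keeps epithelial junction genes on, had 0 to 3 counts per library, 24 in all 18 control libraries together and 26 in all 18 IL-1β libraries. OVOL1 (ENSG00000172818, GRCh37 chromosome 11, 65554534 to 65564685), an Ovo-like repressor of ZEB1, had 3 counts in all controls together and 0 in all IL-1β libraries. A count of 3 corresponds to 0.120 to 0.387 CPM in these libraries, so a difference in either gene was not detectable at this depth and no fold change is given. This floor covers counting error only. Much of the wider epithelial network was not tested either. Among 16 related epithelial factors, 9 were not tested: GRHL3 and OVOL2, the relatives of GRHL2 and OVOL1, had at most 3 and 2 counts in any library, the epithelial splicing factors ESRP1 and ESRP2 at most 6 and 11, MIR200CHG (a host of miR-200 family members, which target ZEB1 and ZEB2) at most 1, and ELF5, ZNF750, TP63 and CDX2 at most 7. Of 32 epithelial target genes, 8 were not tested, among them CLDN3, CLDN7, RAB25, ST14 and PRSS8, with at most 15 counts in any library.

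**Figure D3:**
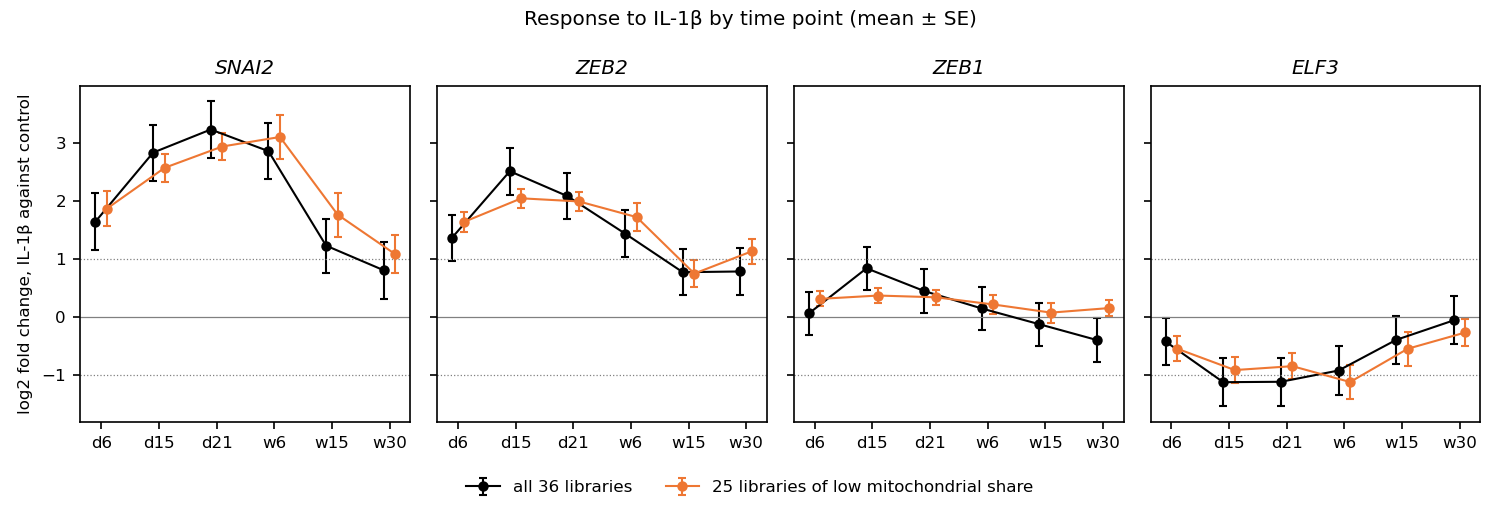
Log2 fold change of IL-1β against control (mean ± SE) for SNAI2, ZEB2, ZEB1 and ELF3, by day of exposure (d) or after withdrawal (w), in all 36 libraries and in the 25 low-share ones. Dotted lines mark a 2-fold change. SNAI2 peaks at 3.23 on day 21 in all libraries and stands at 3.10 at day 6 after withdrawal in the low-share libraries.

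The change of the SNAI2 response from day 21 to day 30 after withdrawal, tested as the difference of the 2 responses, was -2.43 ± 0.68 on the log2 scale (unadjusted p = 0.00127, adjusted p = 0.122, with 0.626% of genes called in this comparison). Within the low-share libraries it was -1.86 ± 0.41 (adjusted p = 0.0273), where 0.849% of genes were called, and under the replicate block -2.35 ± 0.56 (adjusted p = 0.0335), where 0.824% were. For ZEB2 the same difference was -1.30 ± 0.57 (adjusted p = 0.698), and for ELF3 1.06 ± 0.58 (adjusted p = 0.905). The mean response during exposure exceeded that after withdrawal by 0.94 ± 0.38 for SNAI2 (adjusted p = 0.304) and by 0.99 ± 0.32 for ZEB2 (adjusted p = 0.126), and the same difference for SNAI1 was -0.83 ± 0.31 (adjusted p = 0.225). No member was called in this comparison, where 1.29% of tested genes were. An unadjusted edgeR p under 0.05 was found there for 3 of the 8, and the share of all tested genes under that limit was not counted. DESeq2's Wald test called 0 members in this comparison too.

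Within the untreated cells several members stood at different levels in libraries of high and low mitochondrial share. ZEB1 was at 37.8 to 68.5 CPM in the 6 control libraries of high share and at 21.9 to 29.1 CPM in the 12 of low share. ZEB2 was at 6.32 to 9.59 CPM against 2.15 to 5.84, and SNAI2 at 2.52 to 5.81 CPM (median 4.37) against 1.13 to 2.96 (median 2.01). ELF3 was at 38.2 to 87.2 CPM against 87.4 to 140.8. Of the 8 tested members, 3 (ZEB1, ZEB2 and ELF3) did not overlap between these libraries, where 20.2% of all tested genes did not, and KLF4 had medians of 3.68 against 7.69 CPM. These libraries were told apart after the data were seen, so no test is given. With the share as a covariate SNAI2 stood at 2.84 ± 0.24 at day 21 (adjusted p = 4.2e-10) and ZEB2 at 1.80 ± 0.20 (adjusted p = 6.5e-08). The part of the mitochondrial share in the responses was not tested.

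**Figure D4:**
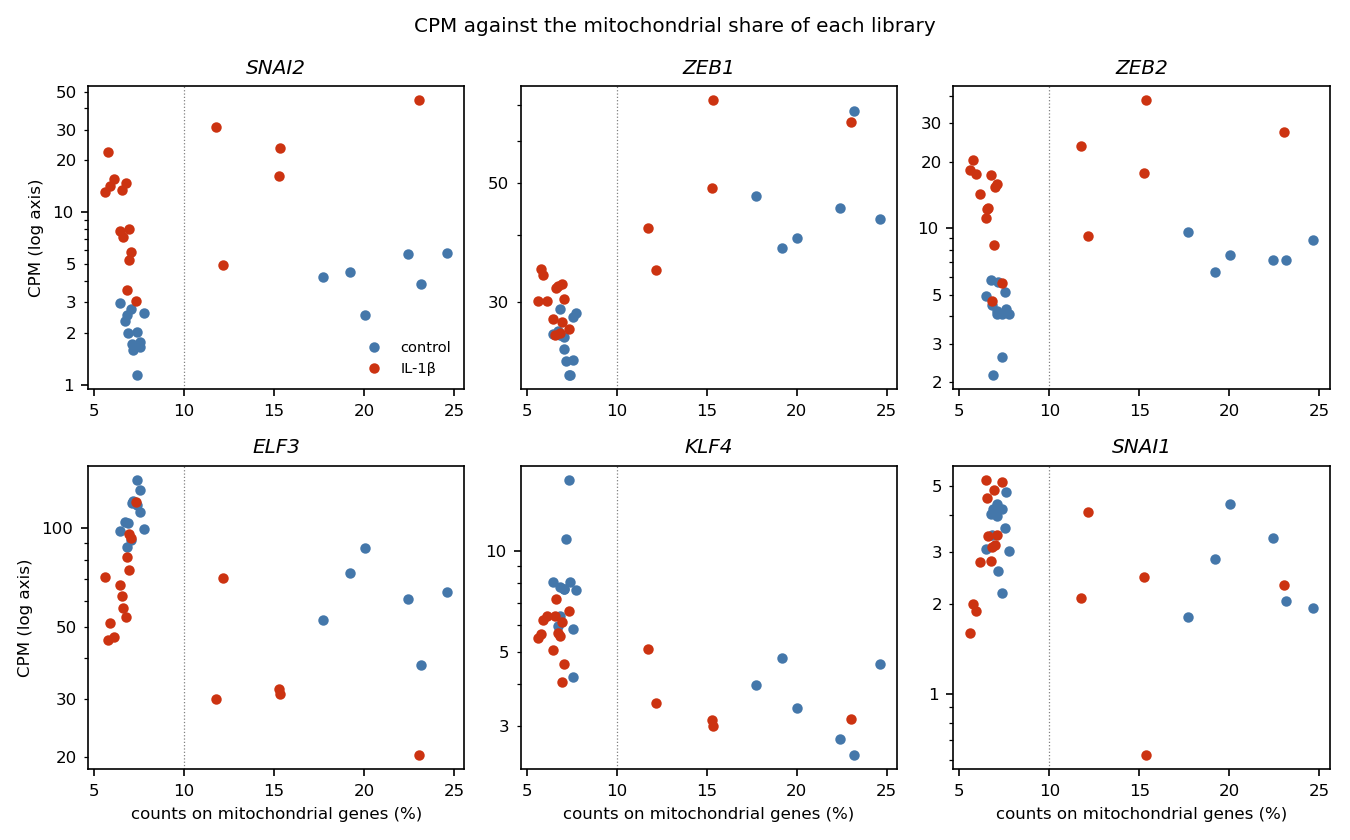
CPM (log axis) of 6 of the factors against the percentage of counts on mitochondrial genes in each of the 36 libraries, with control and IL-1β libraries in different colours and a dotted line at 10%. Control libraries of high share lie above those of low share for ZEB1 and ZEB2 and below them for ELF3.

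The wider network was described with lists of related genes. Over all tested genes, the shares called at the 6 time points were 2.77%, 4.24%, 4.26%, 1.8%, 0.954% and 0.897% in time order. Of 14 other EMT factors 11 were tested and none was called at any time point by edgeR or by DESeq2's Wald test. Their median response ran from -0.19 at day 6 of IL-1β to 0.07 at day 6 after withdrawal on the log2 scale, beside -0.02 and -0.0014 over all tested genes. FOXC2, a forkhead factor, was called higher in the mean over withdrawal, where 2.39% of tested genes were called. At an unadjusted edgeR p under 0.05 there were 0 to 3 of these 11 factors at each time, 6 in the mean over exposure and 6 in the mean over withdrawal. The share of all tested genes under that limit was not counted, for this or the other lists. All 4 inhibitors of basic helix-loop-helix factors and all 15 co-repressors were tested and none was called by edgeR or by DESeq2's Wald test, with 0 to 1 of each list under an unadjusted p of 0.05 at each time point. In the means over exposure and withdrawal, 2 and 3 of the inhibitors and 2 and 4 of the co-repressors had an unadjusted edgeR p under 0.05. Of 14 tested genes of protein stability and modification, 1 was called, at day 6 of IL-1β: LOXL2, a lysyl oxidase family enzyme that acts on SNAIL protein, at 1.06 ± 0.23 (adjusted p = 0.00370). Of 7 tested related epithelial factors, the numbers called lower were 2, 1 and 2 at days 6, 15 and 21 and 2, 0 and 1 after withdrawal, and 0 were called higher. The called genes were TFCP2L1, a grainyhead-like family factor, which fell by 2.16 ± 0.37 at day 15 (adjusted p = 0.000194), and FOXA1, a pioneer factor of lung epithelium, at -1.16 ± 0.26 at day 6 after withdrawal (adjusted p = 0.0100) and -1.24 ± 0.25 at day 30 (adjusted p = 0.00759).

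The target genes of these factors included the junction, keratin and matrix genes that define the epithelial and mesenchymal states. Over all tested genes, 2.77%, 4.24% and 4.26% were called during exposure and 1.8%, 0.954% and 0.897% after withdrawal, in time order. Of 24 tested epithelial target genes, 5, 7 and 7 were called lower on days 6, 15 and 21, each time beside 1 called higher (CLDN1), and 3, 1 and 0 were called lower at days 6, 15 and 30 after withdrawal. Their median log2 fold change was -0.64, -0.72 and -0.64 during exposure, beside -0.02, -0.02 and -0.01 over all tested genes. CDH1 fell from 196.5 ± 14.7 CPM in controls to 41.6 ± 19.0 with IL-1β at day 21 (SD, n = 3), a log2 fold change of -2.24 ± 0.30 (adjusted p = 7.2e-06). After withdrawal CDH1 stood at -1.29 ± 0.30 at day 6 (adjusted p = 0.0105), -0.77 ± 0.29 at day 15 (adjusted p = 0.323) and -0.61 ± 0.29 at day 30 (adjusted p = 0.581). CGN (cingulin, a tight junction protein) was called lower at 5 of the 6 time points and KRT18, a simple epithelial keratin, at 4. Of 16 tested mesenchymal target genes, 3, 5 and 6 were called higher at days 6, 15 and 21, and 3, 1 and 1 after withdrawal, with 1 (FN1) called lower at days 15 and 30 after withdrawal. Their median ran from 0.84 at day 6 of IL-1β to 0.22 at day 30 after withdrawal. TNC, the matrix protein tenascin-C, was called at all 6, with 4.42 ± 0.51 at day 21 (adjusted p = 5.8e-07) and 2.60 ± 0.58 at day 30 after withdrawal (adjusted p = 0.0173). VIM (vimentin) was not called at any time point and stood at 0.82 ± 0.24 at day 15 (adjusted p = 0.0336), under 2-fold.

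**Figure D5:**
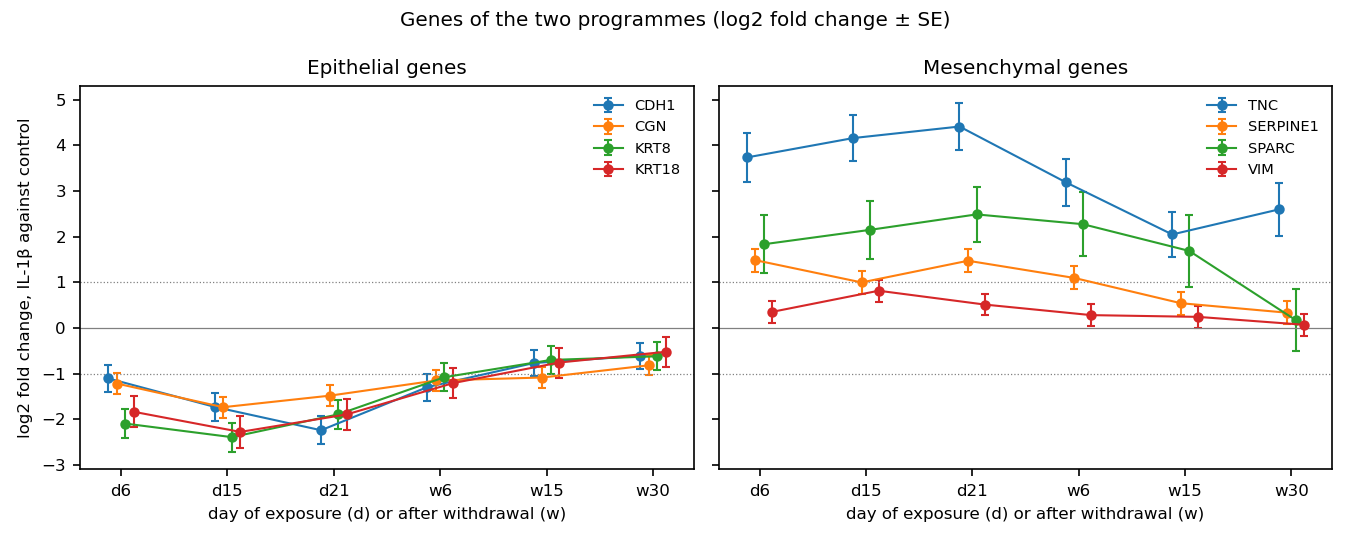
Log2 fold change of IL-1β against control (± SE) for 4 epithelial and 4 mesenchymal genes, by day of exposure (d) or after withdrawal (w). Dotted lines mark a 2-fold change. CDH1 reaches -2.24 at day 21, and TNC stays above 2 at every time point.

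The genes whose response was most like those of SNAI2 and ZEB2 were found over 18 differences of log2 CPM, IL-1β minus control of the same time and replicate number, among 15366 genes with a mean over 1 CPM. For SNAI2 they were PLK2 (r = 0.939), TRAK2 (r = 0.937) and NHS (r = 0.921). For ZEB2 they were TAB3 (r = 0.955), SMURF2 (r = 0.954) and CALU (r = 0.942). A correlation does not measure the size of a response. Over the time points the log2 fold change of SNAI2 ran from 0.80 to 3.23. That of PLK2 ran from 0.15 to 1.05, of TRAK2 from -0.24 to 0.44 and of NHS from -0.13 to 0.92. SNAI2 and ZEB2 themselves had r = 0.835, which put ZEB2 at rank 94 for SNAI2 and SNAI2 at rank 607 for ZEB2. ZEB1 had r = 0.884 with ZEB2 (rank 123) and 0.756 with SNAI2 (rank 605). With ELF3, SNAI2 and ZEB2 had -0.895 and -0.822. The 18 differences share libraries of differing mitochondrial share, so these values are descriptions. Ranked by Spearman correlation instead, PLK2 was the 1 gene of the 3 that remained for SNAI2, and 0 of the 3 remained for ZEB2.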

How the data were processed

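For each of 36 libraries the authors deposited raw counts per Ensembl gene. Per the labels, libraries came from a KAPA stranded mRNA kit, and per the submitters' processing notes single-end reads were aligned to GRCh37 with TopHat2 2.0.14 and Bowtie2 2.2.5 and counted with HTSeq 0.6.1. The annotation release and strand setting were not given in the sources used here. Reads on no gene (8.48% to 18.6%) or ambiguous (2.62% to 4.18%) stayed out of library sizes. From these counts, genes passing filterByExpr were scaled by TMM and tested with edgeR 4.0.16 (quasi-likelihood, 12 groups, 24 residual degrees of freedom) in R 4.3.3. In simulated counts (day 21 of IL-1β, 18922 genes), 192 of 200 genes changed by a log2 of 2 were recovered, with 9 false calls. The spread in the simulation was set by a formula and not estimated from these data. It held no differences between replicates or in mitochondrial share, so these rates need not hold for the real libraries. DESeq2 1.42.0, limma 3.58.1, Python 3.11.15, pandas 2.3.3, numpy 2.4.6 and matplotlib 3.10.9 were also used. Symbols, positions and transcript lengths came from GENCODE v44lift37.

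The members and lists were chosen with earlier results of these data known. Named were all 10 members, and from each list CDH1, VIM and up to 4 genes called at the most time points, plus the 3 genes most like each called member. FOXC2, FN1 and CLDN1 were named after their values were seen, as were the list genes not tested. Same-numbered control and IL-1β libraries deviated together (every correlation of deviations over 0.1) at day 21 (0.197 to 0.259) and day 30 after withdrawal (0.310 to 0.464). At the other 4 time points at least 1 pair was under or near 0.1 (-0.336 to 0.718 over all 18 pairs, 14 over 0.1). Other pairs reached 0.704 and 0.718 at day 6 after withdrawal and 0.643 and 0.556 at day 15 after withdrawal. The negative values were -0.114 (day 6 after withdrawal, replicate 1) and -0.336 (day 15 after withdrawal, replicate 3). Each joined a high-share control with a low-share IL-1β library, as did replicate 2 at day 6 of IL-1β (0.0901). The pairing by number comes from the data, since no label explains the numbers. Alternatives were DESeq2's size factors and Wald test, other filters, separate fits, the replicate number as a block, each replicate left out, and an adjusted p alone. Fits without libraries of high mitochondrial share or with it as a covariate were added after seeing the data.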

Additional observations from a re-analysis of the deposited data

Results flagged for a closer look

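At some pairs of time points every IL-1β library of a gene lay above the control mean at one time and below it at the other. None of these differences was tested. KLF4 moved from above at day 6 of IL-1β to below at day 15, and its log2 fold change differed by -1.496. ZEB1 was above at day 15 of IL-1β and below at day 30 after withdrawal, a difference of -1.24. The control mean at day 30 includes 1 library at 68.5 CPM, and the IL-1β libraries at day 15 include 1 at 71.7 CPM. Both are of high mitochondrial share, and in the low-share libraries the log2 fold changes were 0.37 at day 15 and 0.15 at day 30. TWIST2 was above at day 30 after withdrawal and below at day 15 of IL-1β, day 6 after withdrawal and day 15 after withdrawal, with differences of 1.19, 1.10 and 1.18. None of the single responses behind these differences was called.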

How the results depend on the processing

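At day 6 of IL-1β, where 1 member was called, the count was 0 with DESeq2's size factors and 2 (SNAI2 and ZEB2) with no filter, with at least 10 counts in every library, with DESeq2's Wald test, in a separate fit, with the replicate block, without the high-share libraries and with the mitochondrial share as a covariate. The share of tested genes called in these fits ran from 1.25% (no filter) to 4.04% (covariate). At day 6 after withdrawal the count was 1 with DESeq2's size factors (1.83% of tested genes called) and 3 (ELF3 added) with the covariate (2.81%). In the separate fit, which has 4 residual degrees of freedom, it was 0. That fit called 1 of 16637 tested genes (0.00601%) at this time, so its 0 tells little about the members. Without the high-share libraries, where a single control library remains, ELF3 stood at -1.12. At day 21 of IL-1β the count was 3 (ELF3 added) with the replicate block (4.64% of tested genes called) and in the separate fit (5.59%). SNAI2 was called at day 15 after withdrawal with the covariate (1 member), and ZEB2 at day 30 without the high-share libraries (1 member). The mean over exposure had 4 by the adjusted p alone. The mean over withdrawal had 2 with no filter, with at least 10 counts, without the high-share libraries, with the covariate and by the adjusted p alone. The change of response from day 21 to day 30 after withdrawal had 1 (SNAI2) with the Wald test, the replicate block, the covariate and without the high-share libraries, and the exposure mean minus the withdrawal mean had 1 (ZEB2) with the block.

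With each replicate left out, the counts ran from 0 to 1 at day 6 of IL-1β, 2 to 5 at day 15, 1 to 2 at day 21, 0 to 1 at day 6 after withdrawal and 1 to 2 in the mean over withdrawal. The shares of all tested genes called in these fits ran from 0.916% to 2.14% at day 6 and 1.48% to 4.57% at day 15. They ran from 1.56% to 3.36% at day 21, 0.151% to 1.53% at day 6 after withdrawal and 1.47% to 2.19% in the mean over withdrawal. The 5 at day 15, without replicate 2, were SNAI2, ZEB2, ZEB1, ELF3 and KLF4, where 4.57% of 19474 tested genes were called. In the low-share libraries ZEB1, ELF3 and KLF4 were not called at day 15. The cause of these changes was not tested.

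Uncalled log2 values that changed sign were SNAI1 at day 6 after withdrawal (-0.22 without the high-share libraries, -0.069 with the covariate), TWIST2 at day 6 of IL-1β (-0.11 and -0.073), ZEB1 at day 15 after withdrawal (0.072 and 0.14), in the mean over withdrawal (0.14 and 0.082) and at day 30 without the high-share libraries (0.15), and ELF3 at day 30 (0.011 with the replicate block, 0.067 with the covariate). Leaving out replicates gave ranges across 0 for SNAI1 (-0.024 to 0.17 at day 6 and -0.012 to 0.52 at day 30 after withdrawal), TWIST2 (-0.13 to 0.34 at day 6 and -0.052 to 0.19 at day 21 of IL-1β, -0.36 to 0.030 in the mean over withdrawal), ZEB1 (-0.10 to 0.33 at day 6 of IL-1β, and -0.17 to 0.35, -0.40 to 0.14 and -0.66 to 0.14 at days 6, 15 and 30 after withdrawal), ELF3 (-0.28 to 0.077 at day 30) and KLF4 (-0.29 to 0.15 at day 6 and -0.37 to 0.0088 at day 15 after withdrawal). Of the gene values recomputed, 671 kept direction and side of the threshold, 26 passed it newly, 11 lost it and 24 changed sign.

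The replicate block changed no other call at day 21 of IL-1β or day 30 after withdrawal, where same-numbered libraries deviated together. At the other 4 time points at least 1 pair did not, and the block is an alternative there. Depth limits GRHL2, OVOL1 and TWIST2 most.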
